A study of Mus musculus with 5 samples.

Results

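Collagen chain genes were taken as every row of the count files whose symbol reads Col, a number, the letter a and a second number with nothing after it. This rule found 44 genes of 23183. They were followed in lungs of female wild-type BALB/c mice in 5 groups with 1 library each: an untreated control, then PM10, PM10/OVA, and both exposures with a treatment (PM10/OVA/CPX or PM10/OVA/Dex). PM10 is inhalable airborne particulate matter, which these 4 exposed groups received through the nose on 4 occasions across 2 weeks. OVA is ovalbumin, an allergen from egg white that was injected into the peritoneum first and then dropped into the nose. CPX, as the labels abbreviate it, is an inhibitor of chitinase-1, injected into the peritoneum 6 times within 3 weeks on top of PM10 and OVA. Dex is dexamethasone, a synthetic glucocorticoid, injected 3 times in the final week on top of PM10 and OVA. The exposed mice were killed 2 days after the last challenge. OVA without PM10, and either treatment without both exposures, are not analysed here. The labels give no age or dose, and do not say whether a library holds 1 lung or several.

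The series title names fibrosis of the airways, and collagens are the main protein of fibrotic matrix. A collagen molecule is a triple helix of 3 chains, either copies of a single chain or products of different genes. Fibrillar collagens of types I, III and V are made chiefly by fibroblasts and give the lung its tensile strength. The fibrillar class used here also holds the minor chains Col24a1 and Col27a1, while chains of cartilage fibrils are classed with cartilage. Network-forming type IV collagens lie in the basement membranes under epithelium and endothelium, and type VI forms beaded filaments close to cells. Types II, IX, X and XI belong to cartilage, which in the lung stiffens the trachea and the large bronchi. The 44 genes were divided into 8 fibrillar, 9 basement membrane, 7 cartilage and 20 other chains, and every position below is from GENCODE M21 on GRCm38.

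The libraries held 11993222 to 16929068 counts. A gene was called measured when its average over the 5 libraries reached 1 CPM (its count as a share of the library, scaled with trimmed-mean-of-M-values factors), which 14305 genes did. The lung markers Sftpc, Sftpa1, Scgb1a1 and Ager were at 1369 CPM or more in every library. The summed levels of heart muscle, fat and cartilage markers were highest in control, at 2999, 367 and 118 CPM. In the exposed libraries they were 239 to 626, 36.1 to 110 and 21.4 to 63.2 CPM. Most of the cartilage sum in the exposed libraries came from 1 marker, Chad. It was at 52.4 CPM in control and 19.0 to 57.0 CPM in the exposed libraries, highest in PM10/OVA/Dex. With 1 library per group no difference has a replicate check and no test between conditions was possible. All intervals are exact 95% intervals of counting error alone. In whole lung, fewer cells of a type and less RNA per cell cannot be told apart.

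Of the 44 collagen genes, 39 counted as measured: all 8 fibrillar, all 9 basement membrane, 6 of 7 cartilage and 16 of 20 other chains. Col9a1, Col19a1, Col22a1, Col25a1 and Col26a1 did not. Col9a2, Col9a3, Col11a1 and Col28a1 passed only through their level in control, so counts over the 39 genes are given as a description.

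The stretches before the start sites of 5 chains are shown because Col3a1, Col24a1, Col6a5 and Col10a1 are among the chains on which the comparisons below turn, and Col4a4 shares its start region with another chain. Each runs 5' to 3' in the direction of the named gene, from RefSeq windows on GRCm38.p6, which is the C57BL/6J reference and not the BALB/c strain of the mice, and ends at the last base before the start site. Capitals mark the TATA box letters TATAAA or the GC box letters GGGCGG, searched on both strands. They cover chr1:45311288-45311537 on the plus strand (Col3a1), chr3:145292222-145292471 on the plus strand (Col24a1), chr9:105960644-105960893 on the minus strand (Col6a5), chr10:34389731-34389980 on the plus strand (Col10a1) and chr1:82586850-82586920 on the minus strand (Col4a4).
Col3a1: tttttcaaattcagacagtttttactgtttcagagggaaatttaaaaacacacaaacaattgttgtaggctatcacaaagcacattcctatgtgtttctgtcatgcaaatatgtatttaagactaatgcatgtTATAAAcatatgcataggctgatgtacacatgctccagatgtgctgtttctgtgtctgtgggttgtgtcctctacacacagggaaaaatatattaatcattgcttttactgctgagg
Col24a1: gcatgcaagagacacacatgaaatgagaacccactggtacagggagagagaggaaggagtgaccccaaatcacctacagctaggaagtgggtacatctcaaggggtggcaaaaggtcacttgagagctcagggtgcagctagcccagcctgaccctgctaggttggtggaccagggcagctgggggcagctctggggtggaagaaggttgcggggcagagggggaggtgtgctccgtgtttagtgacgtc
Col6a5: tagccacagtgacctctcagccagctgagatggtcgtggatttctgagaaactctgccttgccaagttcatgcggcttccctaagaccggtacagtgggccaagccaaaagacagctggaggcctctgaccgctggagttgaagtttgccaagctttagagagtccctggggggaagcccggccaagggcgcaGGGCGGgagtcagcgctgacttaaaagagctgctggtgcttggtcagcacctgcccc
Col10a1: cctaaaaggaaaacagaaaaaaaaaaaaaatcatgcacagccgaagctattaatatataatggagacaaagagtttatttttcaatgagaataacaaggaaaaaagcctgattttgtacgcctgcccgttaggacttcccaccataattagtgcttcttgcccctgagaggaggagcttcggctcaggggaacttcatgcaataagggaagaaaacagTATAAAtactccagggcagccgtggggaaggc
Col4a4: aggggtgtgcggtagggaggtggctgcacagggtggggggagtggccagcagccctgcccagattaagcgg

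The Col4a4 stretch is the whole 71 bases between the start of Col4a4 and the start of Col4a3 on the other strand, so both genes read outward from it. The letters TATAAA began 32 bases before the start of Col10a1 and 117 bases before that of Col3a1. RefSeq windows were matched for 35 of the 44 members, which have 38 windows. In the 250 bases before the start, TATAAA was found in 13.2% of these windows and in 12.4% of all 32817 windows of that length. GGGCGG was found in 57.9% against 32.7%, the CCAAT box letters CCAAT in 34.2% against 33.8%, the AP-1 letters TGANTCA in 2.6% against 6.8%, and the paired STAT half-sites (TTC and GAA, 4 bases apart) in 0 of 38 windows against 5.9%. GC box matches can overlap runs of the same letters, and a match is a description of the sequence only.

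Collagen chains together took 0.533% of the control library (0.530 to 0.537%), 0.660% of PM10, 0.593% of PM10/OVA, 0.494% of PM10/OVA/CPX and 0.483% of PM10/OVA/Dex. The PM10 library had the largest share and both treated libraries the smallest. Within the fibrillar class PM10 was also highest and dexamethasone lowest. It took 0.171% of control, 0.282% of PM10 (0.279 to 0.285%), 0.217% of PM10/OVA, 0.194% of PM10/OVA/CPX and 0.159% of PM10/OVA/Dex. The basement membrane class stood in another order, with 0.244%, 0.264%, 0.270%, 0.190% and 0.229% of the same libraries, lowest under CPX. Cartilage chains took 0.0130% of control, 0.00198% of PM10, 0.000218% of PM10/OVA (0.000152 to 0.000304%), 0.000198% of PM10/OVA/CPX and 0.00158% of PM10/OVA/Dex. Other chains stayed between 0.0936 and 0.113%.

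**Figure D1:**
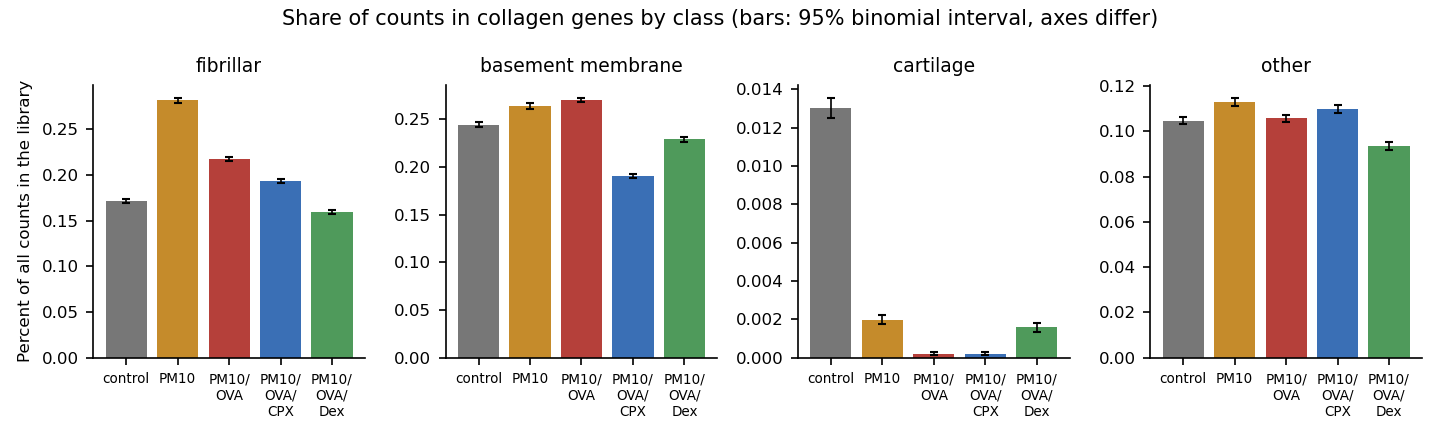
Share of each library's counts in collagen genes by class (percent, 1 bar per library, error bars are exact 95% binomial intervals, each panel with its own axis). The fibrillar share is highest in PM10 (0.282%), the basement membrane share is lowest in PM10/OVA/CPX (0.190%), and the cartilage share is highest in control (0.0130%).

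Levels can be compared between genes per length of exon. In control the 4 highest chains were Col4a1 (144 CPM per kb), Col3a1 (116), Col4a2 (114) and Col1a2 (98.6). The same 4 chains led in all 5 libraries. Col3a1 stood first in PM10 (224 CPM per kb) and in PM10/OVA/CPX (159), and Col4a1 stood first in control, PM10/OVA (187) and PM10/OVA/Dex (150).

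Among fibrillar chains, Col3a1 encodes the chain of type III collagen, which mixes with type I in extensible tissue (chromosome 1, 45311538 to 45349706). It was at 648 CPM in the control library, 1248 with PM10, 998 with PM10/OVA, 886 with CPX added and 642 with dexamethasone added. Its levels under dexamethasone and in control differed by less than counting error, and the other exposed libraries were higher. Col1a1 and Col1a2 encode the chains of type I collagen, the most abundant collagen of scar (chromosome 11, 94936224 to 94953042, and chromosome 6, 4504814 to 4541544). Col1a1 was at 292, 495, 371, 348 and 304 CPM over the libraries in that order. Col1a2 was at 528, 775, 575, 508 and 467 CPM. Both were highest in PM10, and Col1a2 was lower under either treatment than in control.

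Col5a1 and Col5a2 encode chains of type V collagen, which starts fibrils and limits their width. Col5a1 was at 68.1, 79.4, 68.0, 58.3 and 55.8 CPM over the libraries in that order. Col5a2 was at 110, 190, 166, 134 and 120 CPM. Col5a2 thus stood above control in every exposed library, while Col5a1 did so only in PM10. Col5a2 lies 24.6 kb from Col3a1, tail to tail on chromosome 1 (45374321 to 45503282), and the libraries stood in nearly the same order for both, with control and PM10/OVA/Dex trading the lowest place.

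Of the minor fibrillar chains, Col24a1 (chromosome 3, 145292472 to 145552011) was at 0.288 CPM in control on 5 counts, 4.22 in PM10 on 51, 3.09 in PM10/OVA on 49, 1.76 in PM10/OVA/CPX on 22 and 2.44 in PM10/OVA/Dex on 29. Control was the lowest library, outside the counting interval of every exposed one. Col27a1, whose product is also found in cartilage, went the other way, at 21.3, 13.9, 9.71, 10.2 and 13.8 CPM. Col5a3, another type V chain, was at 5.53, 5.22, 7.13, 3.35 and 4.04 CPM, highest in PM10/OVA.

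**Figure D2:**
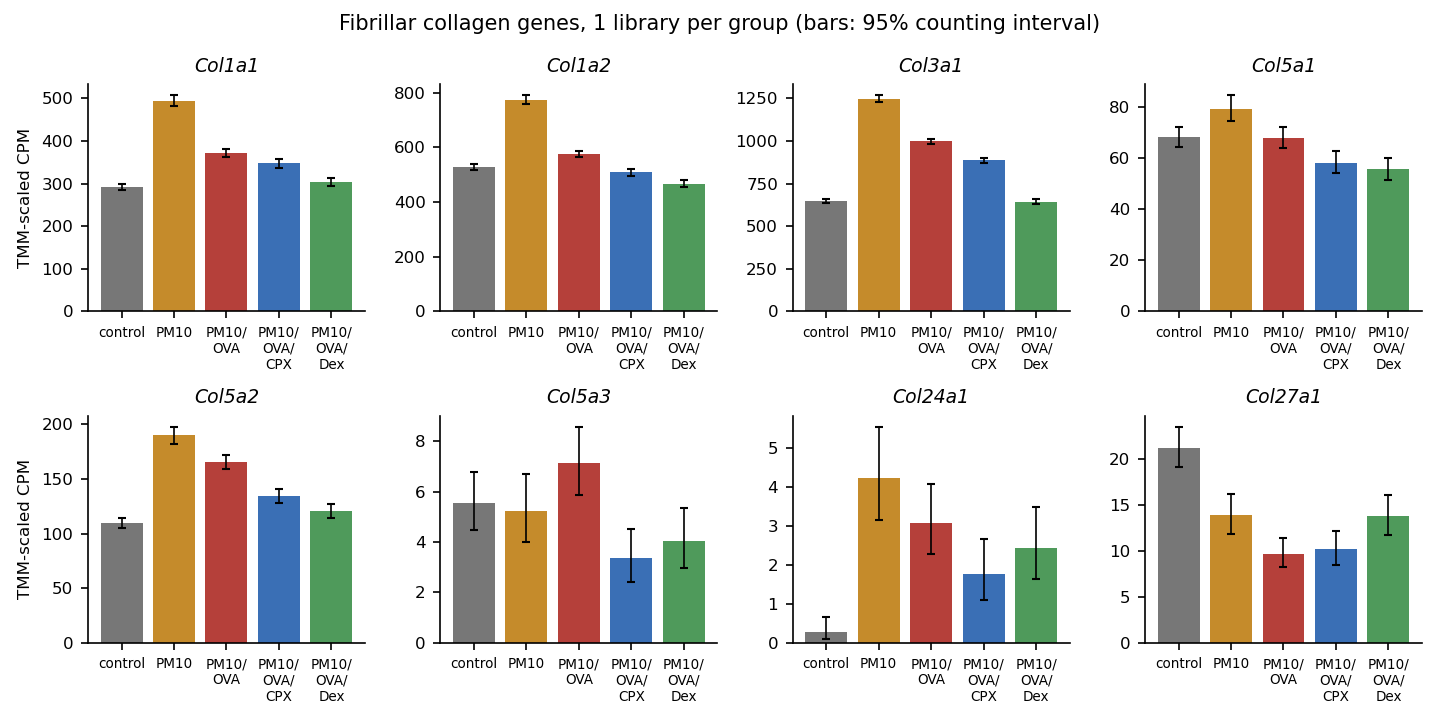
TMM-scaled CPM of the 8 fibrillar collagen genes (vertical axes from 0, 1 bar per library, error bars are exact 95% counting intervals). Col1a1, Col1a2, Col3a1, Col5a1, Col5a2 and Col24a1 are highest in PM10, while Col27a1 is highest in control at 21.3 CPM.

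Basement membrane chains were led by Col4a1 and Col4a2, which form the type IV network of nearly all basement membranes (chromosome 8, 11198423 to 11312826 and 11312805 to 11449287, head to head and sharing 22 bases). Col4a1 was at 952 CPM in the control library, 1170 with PM10, 1239 with PM10/OVA, 817 with CPX added and 993 with dexamethasone added. Col4a2 was at 735, 809, 951, 635 and 811 CPM. The pair was highest in PM10/OVA and lowest under CPX.

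Col4a3, Col4a4 and Col4a5 build the second type IV network, known from alveolar and kidney basement membranes. Col4a3 (chromosome 1, 82586921 to 82722059) was at 297, 263, 230, 197 and 214 CPM over the libraries in that order. Col4a4 (chromosome 1, 82448423 to 82586849) was at 129, 128, 92.9, 83.4 and 105 CPM. Col4a5 (chromosome X, 141475385 to 141689234) was at 155, 118, 97.9, 95.6 and 109 CPM. In contrast to Col4a1 and Col4a2, all 3 were highest in control, though Col4a4 in PM10 was within counting error of it. Like that pair they were lowest under CPX, though Col4a5 there was within counting error of PM10/OVA. Marker genes of alveolar type 1 cells, which rest on this network, summed over 4 genes to between 2326 CPM in PM10/OVA/CPX and 2653 CPM in PM10/OVA.

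Col15a1 and Col18a1 encode the multiplexins, basement membrane proteins of vessels and epithelium whose ends release the fragments restin and endostatin. Col15a1 (chromosome 4, 47208161 to 47313167) was at 38.3, 33.8, 30.5, 20.7 and 17.2 CPM over the libraries in that order. Col18a1 (chromosome 10, 77052178 to 77166548) was at 71.8, 99.2, 85.8, 63.2 and 51.7 CPM. Both were lowest under dexamethasone, with CPX next, though Col15a1 under dexamethasone was within counting error of CPX. Col7a1, which makes anchoring fibrils, and Col4a6 stayed at 4.47 CPM or less.

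All 7 cartilage chains were highest in control. Col10a1, of hypertrophic cartilage (chromosome 10, 34389981 to 34397085), had 1212 counts in the control library, 59 with PM10, 1 with PM10/OVA, 2 with CPX added and 82 with dexamethasone added. Col2a1, the main chain of cartilage fibrils (chromosome 15, 97975602 to 98004695), had 333, 23, 0, 1 and 27 counts. Col11a1, its partner in fibrils (chromosome 3, 114030540 to 114220718), had 201, 16, 1, 1 and 28 counts. Col9a2 had 147, 7, 2, 0 and 18 counts. Col9a3, another type IX chain, had 84, 18, 10, 7 and 9 counts, or 4.84, 1.49, 0.631, 0.559 and 0.757 CPM. Col10a1, Col2a1, Col11a1 and Col9a2 kept the same order of control, then PM10/OVA/Dex and PM10, with at most 2 counts in the other libraries.

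Col11a2 (chromosome 17, 34039437 to 34066685) differed from them, at 10.8 CPM in the control library, 9.44 with PM10, 1.32 with PM10/OVA, 1.12 with CPX added and 1.85 with dexamethasone added. Its level in PM10 was within counting error of control. Of the cartilage markers that are not collagens, Acan, the cartilage proteoglycan, was at 35.6, 3.31, 0.126, 0 and 2.44 CPM over the libraries in that order, while Chad, an adhesion protein of cartilage that is also found elsewhere, was at 52.4, 19.0, 21.0, 47.6 and 57.0 CPM. Of the 8 cartilage markers 4 were at 0 in PM10/OVA and 3 in PM10/OVA/CPX. The bone markers Bglap and Sp7 were at 0 in all 5 libraries, and Ibsp and Dmp1 at 0.346 CPM or less. Phex, the only bone marker that counted as measured, was at 4.84 CPM in control, 10.9 in PM10 and 3.34 to 5.91 in the others. How far unequal amounts of airway cartilage in the lung pieces enter these values was not tested.

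**Figure D3:**
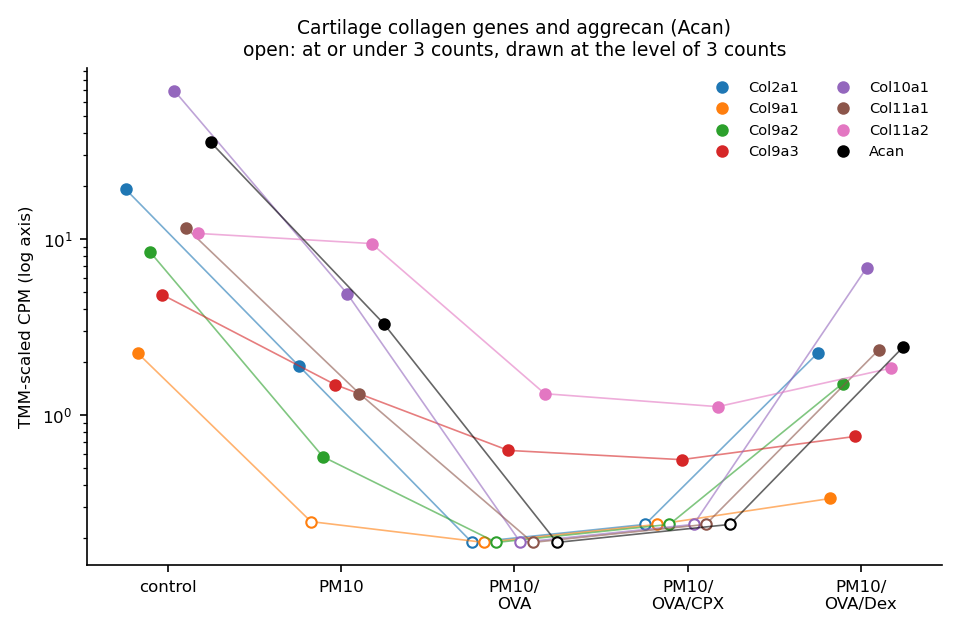
TMM-scaled CPM (log axis) of the 7 cartilage collagen genes and of aggrecan (Acan) in the 5 libraries, with thin lines joining the values of a gene and open circles for 3 counts or fewer, drawn at the level of 3 counts. Most genes are at open circles in PM10/OVA and PM10/OVA/CPX, while Col11a2 keeps 9.44 CPM in PM10.

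Type VI collagen is a microfilament of Col6a1, Col6a2 and another, longer chain, which can be Col6a3 or one of its relatives Col6a4, Col6a5 and Col6a6. Col6a5 (chromosome 9, 105856078 to 105960643) had 38 counts in the control library, 20 with PM10, 279 with PM10/OVA, 533 with CPX added and 170 with dexamethasone added, or 2.19, 1.66, 17.6, 42.6 and 14.3 CPM. Every library that received OVA stood above both libraries that did not. Its neighbours on the same strand did not share that order. Col6a6, at 27.9 kb, was at 4.90, 2.15, 3.91, 4.55 and 2.19 CPM, and Col6a4, at 28.8 kb, at 0.479 to 1.74 CPM. Of the scaffold chains, Col6a1 was at 249, 302, 296, 324 and 263 CPM and Col6a2 at 187, 220, 261, 280 and 196 CPM, both highest under CPX. Col6a3 was at 148, 181, 150, 143 and 118 CPM, highest in PM10.

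Of the remaining chains, Col14a1, which sits on the surface of type I fibrils, was at 107, 93.6, 61.8, 70.5 and 57.3 CPM over the libraries in that order. It was lower in all 3 libraries with OVA than in the 2 without. Col12a1, a related fibril-associated chain, was at 48.0, 37.9, 37.3, 22.6 and 32.5 CPM, lowest under CPX. Col13a1 and Col23a1, which span the cell membrane, had levels of 66.0 to 87.3 CPM and of 83.3 to 126 CPM. Col16a1 stayed between 34.0 and 45.2 CPM, and Col8a2 of vessel walls between 9.58 and 14.8 CPM. Its partner Col8a1 was at 18.7, 12.2, 13.8, 16.5 and 17.2 CPM. Col20a1 was at 3.23, 1.49, 2.33, 3.99 and 3.36 CPM, lowest in PM10, and Col28a1 at 2.65, 1.33, 1.20, 0.319 and 0.757 CPM, on 4 to 46 counts. Col17a1, the hemidesmosome chain of basal cells, was at 7.67 CPM in control and 4.15 to 6.05 CPM elsewhere, beside summed basal cell markers of 28.5 CPM in control and 1.12 to 10.8 CPM elsewhere.

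The first comparison, PM10 against control, is about particles without allergen. The chains of types I, III and V other than Col5a3 were higher, and 5 of the 6 measured cartilage chains were lower. Col3a1 was 1.93-fold higher (interval 1.88 to 1.97), Col5a2 1.73-fold (1.63 to 1.84), Col1a1 1.70-fold (1.63 to 1.76) and Col1a2 1.47-fold (1.43 to 1.51). Col24a1 was 14.7-fold higher (5.89 to 47.1), Col18a1 1.38-fold and Col4a1 1.23-fold. Col10a1 was 14.3-fold lower (11.0 to 18.9), Col2a1 10.1-fold (6.60 to 16.1), Col9a2 14.6-fold (6.92 to 37.0) and Col11a1 8.74-fold (5.25 to 15.6). Col6a6 was 2.28-fold lower (1.45 to 3.68) on 26 counts against 85.

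On log2(CPM + 1), the scale of all counts past a fold, 1 of the 39 measured chains (Col24a1) was at least 2-fold higher in PM10, where 3.70% of all measured genes were. Another 5 were at least 2-fold lower, or 12.8%, against 2.04% of all measured genes, and all 5 were cartilage chains. At 1.5-fold, 4 chains were higher, or 10.3%, against 8.02%, all of them fibrillar, and 8 lower, or 20.5%, against 5.89%. Among the lower chains, Col9a2, Col9a3 and Col11a1, and at 1.5-fold Col28a1, counted as measured only through their level in control. These counts of lower chains are therefore a description only. The median log2 ratio was 0.66 over the 8 fibrillar chains, 0.00 over the 9 basement membrane chains and -0.22 over the 16 measured other chains.

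Fibroblast markers did not stand in the same order as the fibrillar chains. Of the 9 fibroblast markers, 8 were lower in PM10 than in control, as were 7190 of all 14305 measured genes. The 9 markers summed to 3771 CPM in the control library, 2851 with PM10, 2426 with PM10/OVA, 3008 with CPX added and 3425 with dexamethasone added. The sum of Col1a1, Col1a2 and Col3a1 per unit of that marker sum was 0.389 in the control library, 0.883 with PM10, 0.801 with PM10/OVA, 0.579 with CPX added and 0.412 with dexamethasone added. That sum rests largely on Inmt, at 2149 CPM in control. Without Inmt, a choice made after seeing the data, the ratios were 0.905, 1.71, 1.75, 1.38 and 0.991 over the libraries in that order, so that PM10/OVA and not PM10 was highest. The part of fibroblast number in these values was not tested. Of the 7 activated fibroblast markers, 4 were above 0 and 3 below 0 in PM10 against control, with a median log2 ratio of 0.02. Spp1, osteopontin, went from 47.2 to 135 CPM and Tnc, tenascin C, from 18.4 to 36.1 CPM, while Acta2, smooth muscle actin, was at 314 and 190 CPM and Fap at 2.36 and 1.24 CPM. The smooth muscle markers summed to 923 CPM in control and 469 CPM in PM10. Which cells in whole lung made Spp1, Acta2 and the other markers was not tested. Fn1, fibronectin, was at 460 CPM in the control library, 606 with PM10, 620 with PM10/OVA, 685 with CPX added and 393 with dexamethasone added, and Postn, periostin, was at 560 CPM under CPX and 428 to 435 CPM in the other 4.

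Adding allergen to particles is read from PM10/OVA against PM10. In the library with OVA 7 of 8 fibrillar chains had lower levels, the measured cartilage chains other than Col9a2 were lower beyond counting error, and Col6a5 was higher. Of all 14305 measured genes, 7052 had lower levels there. Col1a2 was 1.35-fold lower (1.31 to 1.39), Col1a1 1.33-fold (1.29 to 1.38), Col3a1 1.25-fold (1.22 to 1.28) and Col14a1 1.51-fold (1.39 to 1.65). Col6a5 was 10.6-fold higher (6.75 to 17.7) and Col6a6 1.82-fold (1.13 to 2.99), while Col4a2 was 1.17-fold and Col4a1 1.06-fold higher. Col11a2 was 7.13-fold lower (4.45 to 12.0), Col10a1 77.5-fold on 1 count against 59 (13.4 to 3111), Col11a1 21.0-fold on 1 count against 16 (3.26 to 881), and Col2a1 at least 7.55-fold lower, the exact limit of 0 counts against 23 (10.1-fold against the floor of 3 counts).

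At 2-fold, 1 chain was higher (Col6a5), or 2.56%, where 0.692% of all measured genes were, and 4 were lower, or 10.3%, against 1.27%, all from cartilage. At 1.5-fold, 2 were higher against a background of 2.85% and 6 lower against 4.73%. The median log2 ratio was -0.34 over fibrillar and -0.21 over basement membrane chains. With the trend on transcript length removed these were -0.23 and -0.09.

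PM10/OVA against control combines both exposures. Col3a1, Col5a2, Col24a1 and Col6a5 were higher, type I chains less so, and cartilage chains lower, while Col5a1 was within counting error of control. Col3a1 was 1.54-fold higher (1.5 to 1.58), Col5a2 1.51-fold (1.43 to 1.61), Col1a1 1.27-fold (1.22 to 1.32) and Col1a2 1.09-fold (1.06 to 1.12). Col24a1 was 10.7-fold higher (4.30 to 34.5) and Col6a5 8.03-fold (5.71 to 11.6). Col4a5 was 1.58-fold lower (1.48 to 1.68), Col14a1 1.72-fold (1.59 to 1.86) and Col27a1 2.19-fold (1.81 to 2.66). Col2a1 was at least 82.1-fold lower, the exact limit of 0 counts against 333 (101-fold against the floor of 3 counts).

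At least 2-fold higher were 2 of the 39 chains, or 5.13%, against 3.17% of all measured genes, and lower were 7, or 17.9%, against 2.73%, of which 6 were cartilage chains and the other Col27a1. At 1.5-fold, 4 were higher against 8.15% and 11 lower, or 28.2%, against 7.19%. Here too Col9a2, Col9a3 and Col11a1, and at 1.5-fold Col28a1, are lower chains that counted as measured only through control. The fibrillar median was 0.33 and the basement membrane median -0.36 (0.47 and -0.13 with the length trend removed). The basement membrane class was mixed, with 3 chains above 0 and 6 below. Of all 14305 measured genes, 7336 were above 0 and 6969 below. PM10/OVA and PM10 share the control library in these ratios.

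The CPX library was next set against PM10/OVA, the comparison behind the study's question about chitinase-1. Col4a1, Col4a2 and the multiplexins Col15a1 and Col18a1 were lower, fibrillar chains of types I and III slightly lower, and Col6a5 higher still. Cartilage chains had too few counts in both libraries for a comparison of Col2a1, Col9a2, Col10a1 or Col11a1. Col4a1 was 1.52-fold lower (1.48 to 1.55), Col4a2 1.5-fold (1.46 to 1.54), Col15a1 1.48-fold (1.27 to 1.72) and Col18a1 1.36-fold (1.24 to 1.48). Col12a1 was 1.65-fold lower (1.43 to 1.91) and Col5a3 2.13-fold (1.48 to 3.11). Col1a2 and Col3a1 were each 1.13-fold lower and Col1a1 1.07-fold (1.02 to 1.11). The other fibrillar chains were lower by more, Col5a2 1.24-fold (1.16 to 1.31), Col5a1 1.17-fold (1.06 to 1.28) and Col24a1 1.76-fold (1.04 to 3.06), except Col27a1, which was within counting error. Col6a5 was 2.42-fold higher (2.09 to 2.81), Col6a1 1.09-fold and Col6a2 1.07-fold.

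The share of chains at least 2-fold higher was 1 of 39, or 2.56%, against 0.636% of all measured genes, and 0 were lower, against 0.762%. At 1.5-fold, 1 was higher against 3.03%, and 5 were lower, or 12.8%, against 3.12%: Col4a1, Col5a3, Col6a4, Col12a1 and Col28a1. The 9 basement membrane chains had a median log2 ratio of -0.25, with 8 of 9 below 0, and the 8 fibrillar chains -0.20, with 7 of 8 below 0. Of all 14305 measured genes, 7258 were below 0. Mesothelial markers, of the cells that cover the lung, were also lowest in this library, at a summed 42.7 CPM against 119 to 163 CPM in the other 4, and all 4 were at least 2-fold lower than in PM10/OVA. Endothelial markers summed to 2668 CPM against 2736 to 3094 CPM. The part of either in the basement membrane values was not tested.

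The dexamethasone library was set against the same PM10/OVA library, which both treatment comparisons share. Col3a1, the multiplexins and the type VI scaffold chains were lower, and 4 cartilage chains were higher. Col15a1 was 1.78-fold lower (1.51 to 2.11), Col18a1 1.66-fold (1.51 to 1.83), Col3a1 1.56-fold (1.51 to 1.60), Col5a2 1.38-fold (1.29 to 1.47) and Col6a2 1.34-fold (1.27 to 1.41). Col1a1 was 1.22-fold lower (1.17 to 1.27), Col1a2 1.23-fold (1.19 to 1.27), Col4a1 1.25-fold and Col6a5 1.23-fold (1.01 to 1.5). Outside the cartilage class, Col27a1 was 1.42-fold higher (1.13 to 1.78), Col8a1 1.25-fold (1.03 to 1.52), Col13a1 1.18-fold (1.08 to 1.28), Col4a4 1.13-fold and Col4a5 1.12-fold. Col10a1 was 109-fold higher on 82 counts against 1 (19.1 to 4370), Col11a1 37.3-fold on 28 against 1 (6.17 to 1526), Col9a2 12.0-fold (2.87 to 107) and Col2a1 at least 9.11-fold, the exact limit of 27 counts against 0 (12.0-fold against the floor of 3 counts).

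At 2-fold, 4 chains were higher, or 10.3%, against 1.20% of all measured genes, all from cartilage, and 0 were lower, against 1.60%. At 1.5-fold, the same count of 4 were higher against 4.63%, and 5 lower, or 12.8%, against 5.47%: Col3a1, Col5a3, Col6a6, Col15a1 and Col18a1. The fibrillar median was -0.29, with 7 of 8 below 0, where 7420 of all 14305 measured genes were. Summed heart muscle markers were 589 CPM in this library against 273 in PM10/OVA, and fat markers 110 against 36.1, so markers of other tissues were higher beside the cartilage chains. Their part was not tested.

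PM10/OVA/Dex against PM10/OVA/CPX sets both treatments side by side. The 4 chains at least 2-fold higher under dexamethasone were from cartilage. Col10a1 was 43.2-fold higher on 82 counts against 2 (11.6 to 363), Col11a1 29.5-fold on 28 against 1 (4.88 to 1206), Col2a1 28.4-fold on 27 against 1 (4.69 to 1164) and Col9a2 at least 4.63-fold on 18 against 0. All 6 type IV chains had higher levels under dexamethasone, Col4a6 within counting error, and Col3a1 and the main type VI chains had lower ones. Of all 14305 measured genes, 6815 had higher levels under dexamethasone. Col6a5 was 2.98-fold lower (2.50 to 3.56), Col6a6 2.08-fold (1.29 to 3.45), Col6a2 1.43-fold (1.36 to 1.51) and Col3a1 1.38-fold (1.34 to 1.42). Col4a1 was 1.22-fold higher (1.18 to 1.25), Col4a2 1.28-fold (1.24 to 1.32), Col12a1 1.44-fold (1.23 to 1.68) and Col13a1 1.32-fold (1.21 to 1.45). At 2-fold, these 4 cartilage chains were higher, or 10.3%, against 1.06%, and 1 lower (Col6a5) against 0.734%. At 1.5-fold, 4 were higher against 3.87% and 2 lower against 4.41%.

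**Figure D4:**
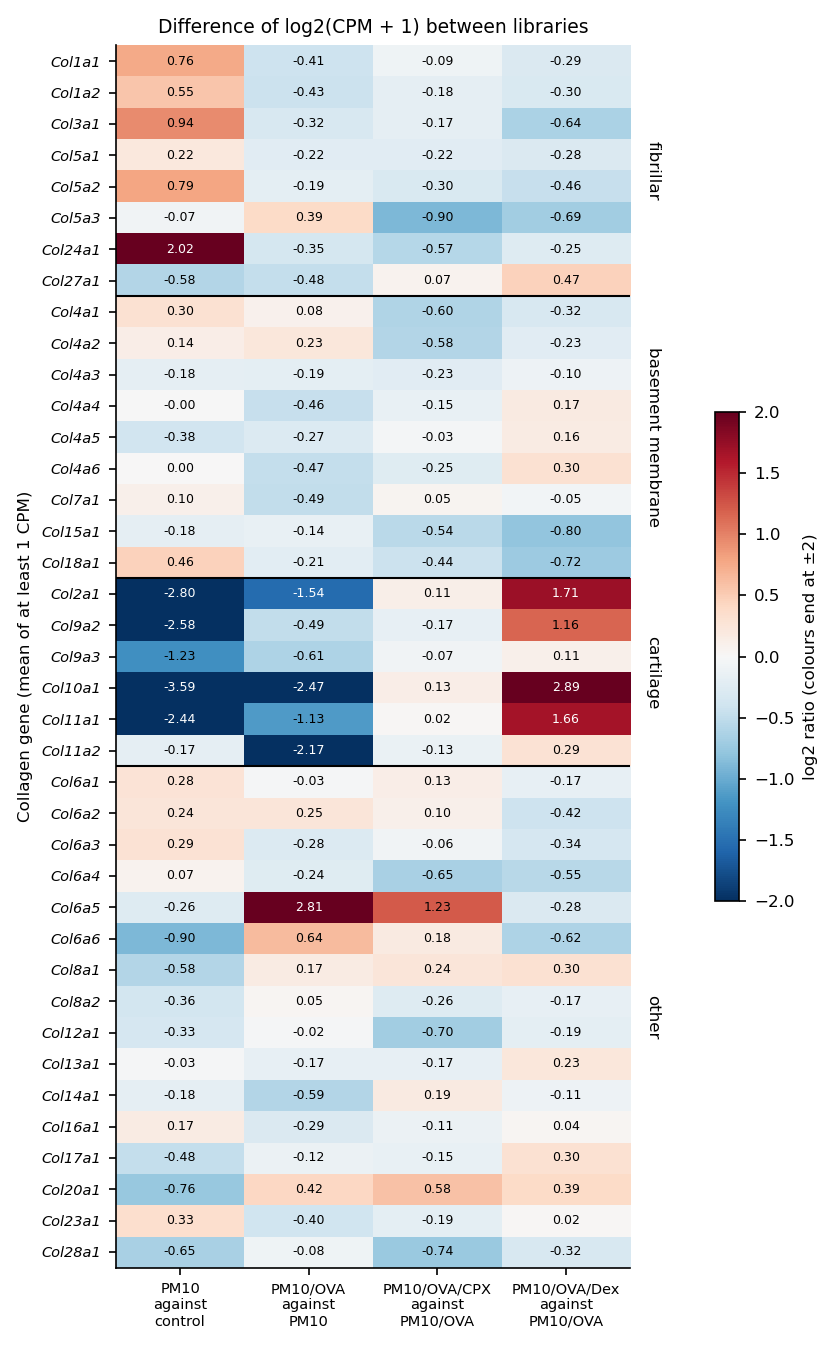
Difference of log2(CPM + 1) between 2 libraries for the 39 measured collagen genes (rows, by class) in 4 comparisons (columns), with the value in each cell and colours that end at ±2. Col3a1 reads 0.94, -0.32, -0.17 and -0.64 from left to right, and Col6a5 reads -0.26, 2.81, 1.23 and -0.28.

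Ratios between chains within a library do not depend on the scaling of libraries. The trend on transcript length was not removed from them, and the chains of a pair differ in exonic length. Col5a1 has 8406 bases of exon against 6625 for Col5a2, and Col4a3 has 8554 against 6615 for Col4a1. Per length of exon, Col1a1 over Col1a2 was 0.499 in the control library (0.482 to 0.516), 0.576 with PM10, 0.582 with PM10/OVA, 0.617 with CPX added and 0.588 with dexamethasone added. Control was the lowest and its interval did not meet those of the exposed libraries. Col5a2 over Col5a1 was 2.04 in control (1.90 to 2.20) and 2.74 to 3.09 in the exposed libraries, so the type V chains differed unequally. Col3a1 over Col1a1 was 2.37, 2.69, 2.87, 2.72 and 2.25 in the same order of libraries, lowest under dexamethasone.

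Col4a1 over Col4a2 lay between 1.19 and 1.41, and Col4a3 over Col4a4, the pair that shares the 71 bases shown above, between 2.41 and 2.93. Col4a3 over Col4a1, the alveolar network set against the common one, was 0.241 in the control library (0.234 to 0.249), 0.174 with PM10, 0.144 with PM10/OVA (0.139 to 0.149), 0.186 with CPX added and 0.167 with dexamethasone added. It was highest in control and lowest in PM10/OVA. Col6a5 over Col6a3 was 0.0172 in the control library, 0.0106 with PM10, 0.137 with PM10/OVA, 0.346 with CPX added (0.314 to 0.382) and 0.141 with dexamethasone added. Among these 5 libraries it was highest under CPX.

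**Figure D5:**
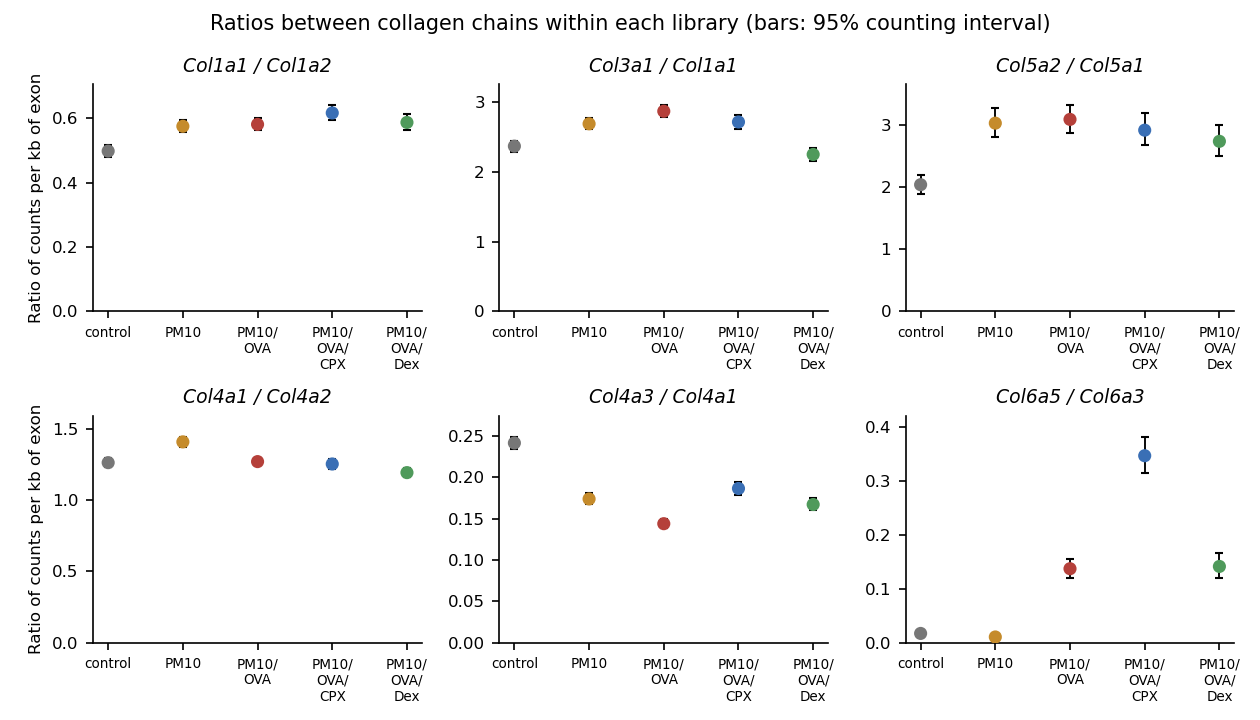
Ratio of counts per kb of exon between a pair of collagen chains within each library (1 point per library, bars are exact 95% counting intervals, axes from 0). Col5a2 over Col5a1 is lowest in control at 2.04, Col4a3 over Col4a1 is highest there at 0.241, and Col6a5 over Col6a3 reaches 0.346 in PM10/OVA/CPX.

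Genes that make, trim, crosslink and break down collagen were read from lists that the rule did not use. Of 17 genes for folding and modification, 0 were at least 2-fold higher or lower in any of the 6 comparisons, where 0.636 to 3.70% of all measured genes were higher and 0.734 to 2.73% lower. For a list of 17 that count is near the background. Serpinh1, the collagen chaperone HSP47, was at 236 CPM in the control library, 295 with PM10, 347 with PM10/OVA, 195 with CPX added and 232 with dexamethasone added, highest and lowest in the same libraries as Col4a1. It was 1.78-fold lower under CPX than in PM10/OVA (1.70 to 1.87) and 1.49-fold lower under dexamethasone (1.42 to 1.56). P4hb, a subunit of prolyl 4-hydroxylase, was 1.44-fold and 1.45-fold lower. Of the 17 genes, 15 were below 0 under CPX (median -0.33) and 13 under dexamethasone (-0.25). Of all 14305 measured genes, 7258 and 7420 were below 0 in these comparisons. Colgalt1, which adds galactose to collagen, was 1.56-fold higher in PM10 than in control (1.45 to 1.67).

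Of 8 measured genes for secretion and propeptide removal, Adamts2, which trims the N-terminal propeptide of fibrillar collagens, was at 50.0 CPM in control, 77.0 in PM10 and 51.5 to 56.2 in the other 3 libraries. Pcolce, an enhancer of C-propeptide removal, was 1.44-fold lower under CPX than in PM10/OVA (1.33 to 1.57) and 1.37-fold lower under dexamethasone. Pcolce2 went the other way, at 150 CPM in PM10/OVA, 170 under CPX and 166 under dexamethasone, with 247 in control. Against PM10/OVA, 3 of the 8 genes were above 0 and 5 below under CPX, and 4 above and 4 below under dexamethasone. Of all 14305 measured genes, 7040 and 6884 were above 0 in these comparisons. Of 5 crosslinking genes, Lox, lysyl oxidase, was at 42.6 CPM in control and 82.4 to 114 CPM in the exposed libraries, with its highest level under dexamethasone, where Col1a1 and Col3a1 were near control. Loxl1 was at 84.0 CPM in control and 99.6 to 125 CPM in the others.

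Of 7 genes for breakdown and uptake, 3 were at least 2-fold higher in PM10 than in control, beside 3.70% of all measured genes: Ctsk, the collagen-cleaving cathepsin K, at 9.87-fold (8.91 to 11.0), Mmp8, neutrophil collagenase, at 2.45-fold, and Mmp14, a membrane collagenase, at 2.14-fold. Ctsk was at 24.2 CPM in the control library, 239 with PM10, 147 with PM10/OVA, 141 with CPX added and 137 with dexamethasone added, a range wider than that of any type I or III chain. Of 8 measured collagen receptors, Itga1, an integrin subunit for type IV and type I collagen, was at 270 CPM in the control library, 221 with PM10, 155 with PM10/OVA, 144 with CPX added and 182 with dexamethasone added. Itga10, the chondrocyte integrin, was at 4.15, 1.08, 0.505, 0.719 and 2.27 CPM, highest in control and next under dexamethasone, as were the cartilage chains of types II, X and XI except Col11a2. Lair1, an inhibitory collagen receptor of leukocytes, was 3.00-fold higher in PM10 than in control (2.48 to 3.63) and 1.94-fold lower under dexamethasone than in PM10/OVA (1.58 to 2.40).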

How the data were processed

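Per the labels' protocols, RNA of whole lung was extracted with Trizol and made into libraries with the NEBNext Ultra II Directional kit. The submitters' processing notes name the aligner TopHat and the build mm10. The version, counting tool, annotation and strand setting are not stated there, so reads shared with overlapping or antisense genes cannot be told apart. The authors deposited whole-number counts per gene symbol without normalization.

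Counts were scaled to CPM with TMM factors (edgeR 4.0.16, R 4.3.3; factors 0.989 to 1.02). Log2 ratios use log2(CPM + 1), a scale that shrinks differences between low values, and chains at least 2-fold and 1.5-fold apart were counted beside the share of all measured genes. Folds are ratios of CPM with exact conditional 95% intervals, library shares have Clopper-Pearson intervals (scipy 1.17.1), and a fold against 0 counts is given as its exact limit, with the value against a floor of 3 counts beside it in places. These cover counting error only, not differences between animals. Exonic lengths are unions of GENCODE M21 basic exons, found for 22813 of 23183 symbols; the longest overlap of a chain with another gene's exons was 7.68% of its length (Col9a3 with Tcfl5). Functions were tested on simulated data. The members, classes and gene lists were chosen with earlier results of these data known. By the rule for named genes, levels in all libraries are given for the main fibrillar, basement membrane, type VI and cartilage chains, for every chain past 2-fold and for the 3 highest and 3 lowest ratios of each comparison. Alternatives were other pseudocounts, scalings, filters and a length correction (statsmodels lowess), with DESeq2 1.42.0 size factors among them.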

Additional observations from a re-analysis of the deposited data

How the results depend on the processing

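Each group has 1 library, so no replicate could be left out. No paired analysis was possible because each group holds a single sample. The alternatives were pseudocounts of 0.25 and 5, DESeq2 size factors, library totals, no filter, a minimum mean of 5 CPM, removal of the length trend and, chosen after seeing the data, TMM factors over the 4 exposed libraries. Of 184 counts 34 moved by more than 1.5 times, of 184 class medians 11 moved and of 948 values of named chains 90 moved. Of the medians and named chains 0 reversed, and counts could not receive that label. Named chains had no full counting interval where a library had 0 counts or both had at most 3. Their values were always labelled moved and could not be labelled reversed, so both totals are in part fixed by the labelling. Other causes were not tested, except that the minimum of 5 CPM leaves fewer chains. Counts of low cartilage chains moved most. For PM10 against control, the 1 chain 2-fold higher became 0 with pseudocount 5 or the 5 CPM minimum, the 5 lower became 1 with that minimum, and the 8 that were 1.5-fold lower became 5 and 1; the cartilage median of -2.51 became -1.33 and -3.59. For PM10/OVA against PM10, both settings gave 1 chain 2-fold lower (4), 1 that was 1.5-fold higher (2) and 2 lower (6); length removal gave medians of -0.23 for fibrillar and -0.089 for basement membrane chains. For PM10/OVA against control, both gave 1 chain 2-fold higher (2), the minimum gave 2 that were 2-fold lower (7), 5 that were 1.5-fold lower (11) and a cartilage median of -6.06 (-3.32), and library totals gave 2 that were 1.5-fold higher (4). There the fibrillar median was 0.47 without the length trend, and the basement membrane median -0.13, or -0.20 with pseudocount 5. For PM10/OVA/CPX against PM10/OVA, pseudocount 0.25 gave 3 chains 2-fold lower (0); it, library totals and length removal gave 2 that were 1.5-fold higher (1). Pseudocount 5 gave 2 and the minimum 3 that were 1.5-fold lower (5), and the basement membrane median was -0.37 with pseudocount 0.25 and -0.44 with the minimum. For PM10/OVA/Dex against PM10/OVA, both pseudocount 5 and the minimum gave 1 chain higher at 2-fold and at 1.5-fold (4 each), pseudocount 5 gave 3 that were 1.5-fold lower (5), and the minimum gave a basement membrane median of -0.23. For PM10/OVA/Dex against PM10/OVA/CPX, both gave 1 chain 2-fold higher (4), 1 that was 1.5-fold higher (4, or 7 with pseudocount 0.25) and 1 lower (2). Depth limits the folds of Col2a1, Col9a2, Col10a1 and Col11a1, which had 0 to 2 counts in PM10/OVA and PM10/OVA/CPX.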

Other observations

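The 5 chains that did not count as measured were at low levels throughout. Col9a1 was at 2.25 CPM in control and at 0.336 CPM or less in the exposed libraries, as the measured cartilage chains were highest in control. Col25a1, a neuronal membrane collagen, was at 1.44 CPM at most and at 0 in PM10/OVA. Col19a1 was at 0.634 CPM in control, and Col22a1 and Col26a1 stayed at 0.315 CPM or less.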
